A study of Mus musculus with 18 samples.

Results

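The serpins described here are 9 liver genes in a cluster on mouse chromosome 12. They were the 5 Serpina1 paralogues (Serpina1a to Serpina1e), which are the mouse counterparts of the human gene for alpha-1 antitrypsin, the Serpina3 genes Serpina3k, Serpina3m and Serpina3n, and Serpina6, which encodes corticosteroid-binding globulin. They were chosen by gene symbol, and all 9 passed the filter on low counts, out of 52230 genes to which transcripts were joined and 10938 that were tested. RNA-sequencing was on livers of male and female mice on a standard chow diet, homozygous for the wild-type (Gckr-446P, PP) or the knock-in (Gckr-446L, LL) form of the glucokinase regulatory protein, in the GCKR-P446L-EMI-B6N line. Males numbered 4 of each genotype and females 5 of each, with 1 library per mouse and label ages of 9 to 14 weeks. By label, male LL mice were 13 to 14 weeks old and male PP mice 9 to 14. Female LL mice were 11 to 14 weeks old and female PP mice 9 to 14. Mice are numbered as in the labels, and the numbers pair no mice.

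Most serpins are protease inhibitors that act as suicide substrates, and the clade A serpins described here are secreted. A protease cleaves an exposed loop near the carboxyl end of the serpin, the reactive centre loop, and is trapped in a covalent complex, so the residues of that loop set which protease is inhibited. Hepatocytes are the main source of alpha-1 antitrypsin in plasma, which inhibits neutrophil elastase. Serpina3 genes are the mouse relatives of human alpha-1 antichymotrypsin, and Serpina3n is an acute-phase gene. Serpina6 inhibits no protease but carries glucocorticoids in plasma.

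The Serpina1 paralogues lie on the minus strand between 103694413 and 103925234 of chromosome 12 (GRCm39), in the order Serpina1b, Serpina1d, Serpina1a, Serpina1c, Serpina1e, and the annotated span of Serpina1b includes that of Serpina1d. Serpina6 lies beside them, from 103611821 to 103623752 on the same strand. Serpina3k (104303391 to 104314397), Serpina3m (104304745 to 104361078) and Serpina3n (104372810 to 104380597) lie on the plus strand, and the spans of Serpina3k and Serpina3m overlap. The coding sequences of the 5 Serpina1 genes were all 1239 bases long and pairs of them were 96.3% to 98.5% identical. They differed at 86 sites. The 90 bases with most of these, 20 sites, were in the last coding exon (exon 5), in the stretch that encodes the reactive centre loop. That stretch is shown because it holds the most differing sites of any 90 bases of the coding sequence. Untranslated regions and proteins were not compared. Capitals mark sites at which the 5 differ, and each is given 5′ to 3′ on the minus strand of GRCm39:
Serpina1a, chr12:103819984-103820073: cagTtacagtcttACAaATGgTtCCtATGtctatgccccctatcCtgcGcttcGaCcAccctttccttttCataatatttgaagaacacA
Serpina1b, chr12:103694551-103694640: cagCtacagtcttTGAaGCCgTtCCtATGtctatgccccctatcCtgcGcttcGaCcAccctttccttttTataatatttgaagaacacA
Serpina1c, chr12:103861321-103861410: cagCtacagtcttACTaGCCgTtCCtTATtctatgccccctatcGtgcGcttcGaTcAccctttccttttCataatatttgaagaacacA
Serpina1d, chr12:103729989-103730078: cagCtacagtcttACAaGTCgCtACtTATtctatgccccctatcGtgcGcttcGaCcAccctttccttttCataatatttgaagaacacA
Serpina1e, chr12:103913327-103913416: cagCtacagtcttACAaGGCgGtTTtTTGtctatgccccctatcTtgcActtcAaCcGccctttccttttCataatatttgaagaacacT

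The share of 31-base words of a coding sequence that also occurred in the coding sequence of another chromosome 12 Serpina gene was 85.9% for Serpina1a, 82.7% for Serpina1c, 65.4% for Serpina1d, 60.5% for Serpina1b and 57.3% for Serpina1e. It was 43.0% for Serpina3m, 34.2% for Serpina3k, 34.0% for Serpina3n and 0 of 1161 words for Serpina6. The estimate for a single Serpina1 gene therefore rests on reads that a model divided between near-identical copies, and the summed count of the 5 genes (the Serpina1 sum) was analysed beside them. Splits between transcripts of 1 gene were less firm still. Serpina1b-203, for example, held from 31.6 to 35242.6 estimated counts over the 18 libraries, and Serpina1e-201 from 0 to 49708, so only gene totals are described.

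Upstream of the transcription start the paralogues were also alike. The RefSeq promoters (GRCm38.p6; 250 bases before to 50 after the start) were found for 6 of the 9 genes. A shared stretch of 144 bases differed at 16 sites among the 5 Serpina1 genes, marked by capitals. Serpina1e is shown, as the paralogue with the widest range of expression, with Serpina1a, of which 140 bases were the same, and Serpina1d, the least alike with 137 (minus strand, 5′ to 3′):
Serpina1a, chr12:103863586-103863729: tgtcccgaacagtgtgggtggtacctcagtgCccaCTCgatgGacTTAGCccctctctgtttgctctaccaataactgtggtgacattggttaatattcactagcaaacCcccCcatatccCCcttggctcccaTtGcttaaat
Serpina1d, chr12:103773595-103773738: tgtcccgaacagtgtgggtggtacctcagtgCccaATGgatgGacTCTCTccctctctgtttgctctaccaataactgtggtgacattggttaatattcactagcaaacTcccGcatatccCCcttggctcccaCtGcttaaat
Serpina1e, chr12:103956921-103957064: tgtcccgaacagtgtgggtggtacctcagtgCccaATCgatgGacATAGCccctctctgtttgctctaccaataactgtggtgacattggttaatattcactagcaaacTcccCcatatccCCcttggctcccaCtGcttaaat

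The letters GTTAAT, which are part of sequences bound by HNF1 factors, occurred once on either strand in each of the 5 Serpina1 promoters, 0 times in that of Serpina3n and in 7.1% of 32851 promoters of 300 bases. TTCNNNGAA, the core of STAT binding sequences, which reads the same on both strands, was found in 0 of the 6 promoters and in 8.3% of all. These are matches of letters only.

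Libraries held 3794671 to 6613905 estimated counts. Of these, the 9 genes took 3.03% to 6.32% and the Serpina1 sum 2.42% to 4.4%. Hepatocyte markers were high in all libraries (7 of 8 listed markers measured), whereas the summed level of 7 neutrophil markers was at most 13.6 normalized counts, with Mpo at 0 throughout. The hepatocyte marker sum, mainly Alb, did not overlap between the sexes. In PP mice it was 725404 to 843391 normalized counts in females and 427113 to 522854 in males. In LL mice it was 633560 to 759797 and 508327 to 615543. Of the 7 markers only Alb was called between the sexes, higher in PP females (log2 fold change 0.94 ± 0.10, DESeq2 adjusted p = 2.23e-17). Summed levels of 7 endothelial and 7 stellate cell and fibroblast markers did not overlap between the sexes in PP mice, at 357 to 741 in females against 170 to 336 in males and at 695 to 948 against 297 to 599 normalized counts. Of the tested markers 4 of 7 and 4 of 6 were called higher, against 6.45% of all genes. By genotype, the sum of 8 Kupffer cell and macrophage markers did not overlap in females, at 529 to 869 in LL and 903 to 1104 in PP mice. In males it was 453 to 761 in LL and 478 to 1232 in PP mice. The 8 markers gave 0 calls by genotype. At an unadjusted DESeq2 p below 0.05 there were 5 in males and 3 in females, against 7.81% and 13.0% of all genes. Vsig4, a macrophage marker, was called higher in LL females than in LL males (DESeq2 adjusted p = 0.016). The sum of 5 cholangiocyte markers did not overlap by genotype in males, at 74.7 to 118 in PP and 54.4 to 73.1 in LL mice. The part of any of these marker levels in the genotype and sex comparisons below was not tested. In bulk liver, fewer cells of a type and less RNA per cell cannot be told apart. Sex-linked transcripts matched the labelled sex in all 18 libraries. Gckr itself, the edited gene, was not called by genotype, at -0.12 ± 0.15 (SE) in males and -0.04 ± 0.13 in females on the log2 scale (DESeq2 adjusted p = 0.86 and 0.915).

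Female PP 1 and female PP 3 stood apart from the other female PP mice and are given separately where they matter. They had more Serpina1e, Serpina3k and Mup RNA than the other 3. Mup genes, which encode male-biased urinary proteins, took 4.52% and 6.93% of their counts, against 2% to 2.85% in the other female PP, 2.09% to 4.66% in female LL, 21.54% to 30.05% in male PP and 11.83% to 19.29% in male LL libraries.

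By TPM, which allows levels of different genes to be compared because it is per length, the Serpina1 genes and Serpina3k formed one abundant tier and the others a tier well below it. In male PP livers the mean TPM was 8073 ± 5919 for Serpina1a, 5493 ± 1074 for Serpina3k, 5466 ± 2970 for Serpina1e, 4949 ± 593 for Serpina1c, 3273 ± 685 for Serpina1b and 2026 ± 388 for Serpina1d (SD, n = 4). Serpina3n, at 98.6 ± 42.4, Serpina6, at 78.6 ± 21.3, and Serpina3m, at 51.6 ± 21.3, followed. The ranges of neighbours in this order overlapped except for Serpina1c above Serpina1b, Serpina1b above Serpina1d and Serpina1d above Serpina3n. In female LL livers Serpina1e was in the lower tier, with a mean TPM of 89.3 ± 67.9 (SD, n = 5), below Serpina6 at 385 ± 200 and Serpina3m at 132 ± 37.2. The TPM of Serpina1a was unstable, ranging from 4954 to 16948 in male PP mice while its normalized count ranged only from 40543 to 46569. The value of 16948 was that of male PP 4. By median TPM Serpina1a, at 5194, was below Serpina3k, at 5571, in male PP mice.

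The first question was whether LL genotype changed expression of these serpins. None of the 9 genes passed the test in either sex (called: DESeq2 adjusted p below 0.05 with at least a 1.3-fold rise or a ratio of 0.7 or less), and neither did the Serpina1 sum. The background was 0.283% of genes called in males and 0.658% in females, out of all 10938 tested. Independent filtering, which leaves out genes of low mean count, gave an adjusted p to 3301 of these in males and 8598 in females, all 9 members included. For each of the 9 genes the values of LL and PP mice overlapped in both sexes, against 4.07% of all tested genes that did not overlap in males and 2.66% in females. edgeR's quasi-likelihood test also called 0 of 9 genes in each sex, against 0.0274% of all genes in each. At an unadjusted DESeq2 p below 0.05 there was 1 gene in males, Serpina3n, and there were 2 in females, Serpina1e and Serpina1d, against 7.81% and 13.0% of all genes.

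The Serpina1 sum was 232018, 258978, 203698 and 188673 normalized counts in male PP 1 to 4 and 204373, 238453, 180718 and 219012 in male LL 1 to 4. These ranges overlapped almost completely, with a fitted log2 difference of -0.07 ± 0.13 (SE; adjusted p = 0.929 by DESeq2). In females the sum was 151892, 127021, 157456, 110967 and 125913 in PP 1 to 5 and 123490, 128276, 117251, 125763 and 115097 in LL 1 to 5, a log2 difference of -0.14 ± 0.11 (adjusted p = 0.582 by DESeq2). The LL females fell within the range of the PP females, and the 2 highest PP values were those of female PP 1 and 3.

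Of the single paralogues, Serpina1e gave the largest value by genotype without being called. Female PP 1 to 5 had 11440, 220, 8383, 276 and 771 normalized counts of Serpina1e, and female LL 1 to 5 had 1656, 840, 116, 325 and 815. Thus 3 of the 5 PP females were within the LL range and female PP 1 and 3 were above it. The fitted log2 difference was -2.49 ± 0.90 (SE; adjusted p = 0.144 by DESeq2). It was -2.79 (adjusted p = 0.0367) without female PP 4, when it was called. In males the log2 fold change was -0.62 ± 1.01 (adjusted p = 0.903). For Serpina1a, Serpina1b, Serpina1c and Serpina1d the genotype log2 fold changes lay between 0.03 and 0.22 in males and between -0.22 and -0.03 in females.

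Serpina3n, the acute-phase member, was 1816, 2678, 1339 and 1675 normalized counts in male PP and 1445, 1532, 1165 and 1294 in male LL mice (log2 fold change -0.47 ± 0.20, DESeq2 adjusted p = 0.312). The highest value was in male PP 2, which was also the mouse with 12575 normalized counts of the serum amyloid gene Saa1, against 591 to 2043 in the other 3 male PP mice and 282 to 631 in male LL mice. Without male PP 2 the log2 fold change of Serpina3n was -0.24 (adjusted p = 0.99). Serpina6 had higher means in LL mice of both sexes, 1590 ± 541 against 1066 ± 132 in males (SD, n = 4 each) and 3199 ± 1447 against 2294 ± 826 in females (n = 5 each), but the groups overlapped. Its log2 fold changes of 0.58 ± 0.31 and 0.48 ± 0.28 were not called (DESeq2 adjusted p = 0.474 and 0.408). Serpina3k, with -0.38 ± 0.45 and -0.39 ± 0.40, and Serpina3m, with 0.00 ± 0.26 and -0.17 ± 0.23, gave no call either.

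**Figure D1:**
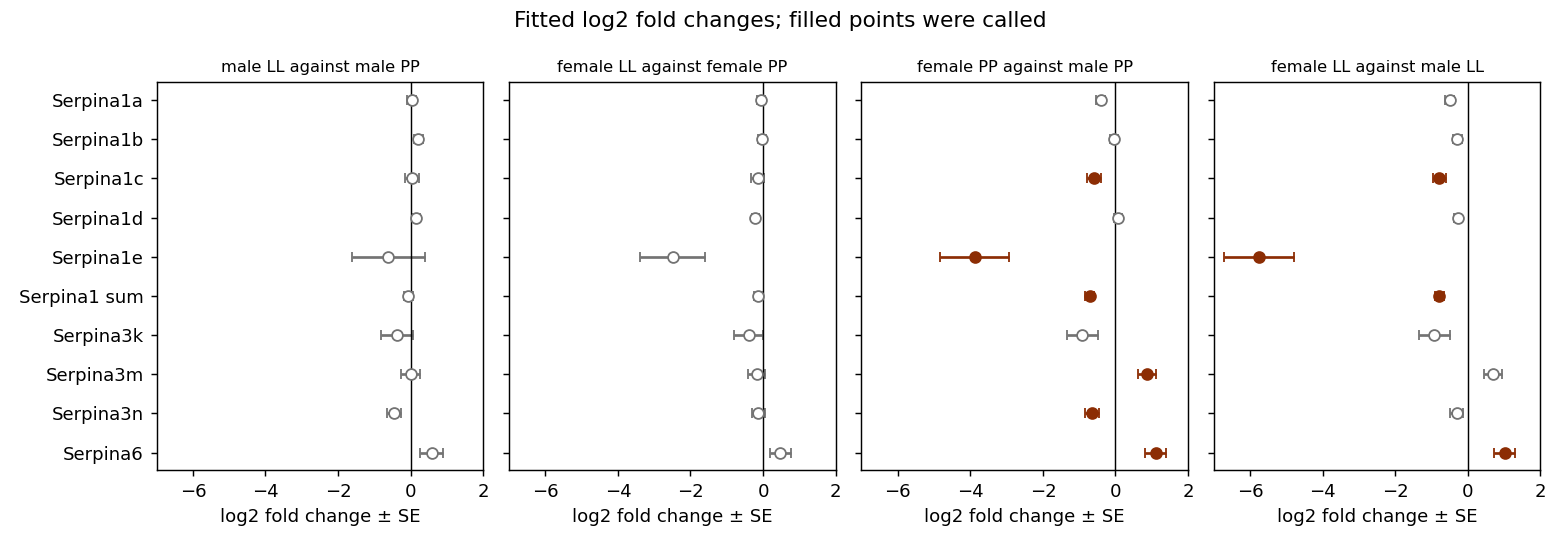
Fitted log2 fold changes with standard errors from DESeq2 for the 9 genes and the Serpina1 sum in 4 contrasts, with filled points for called values. Filled points are seen only in the contrasts between the sexes, and Serpina1e has the widest error bars.

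The genotype by sex interaction tested whether the LL effect differed between males and females. With DESeq2 it was called for 0 of the 9 genes, with 1 at an unadjusted p below 0.05 (5.67% of all genes), and not for the Serpina1 sum, against 0.119% of all genes (adjusted p below 0.05, with no fold limit). edgeR called 0 of the 10938 genes, with 676 at an unadjusted p below 0.05. The gene with the smallest p was Serpina1d, with a difference in log2 fold change of -0.36 ± 0.14 (SE, unadjusted p = 0.0131, DESeq2 adjusted p = 0.339).

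The second question was how these serpins differ between the sexes, which was taken separately in PP and in LL mice and so in different animals. Among PP mice 5 of the 9 genes were called, 3 lower in females (Serpina1e, Serpina1c and Serpina3n) and 2 higher (Serpina6 and Serpina3m), against 6.45% of all genes. Among LL mice 3 were called, Serpina1e and Serpina1c lower and Serpina6 higher in females, against 6.12% of all genes. The sexes did not overlap for 3 of 9 genes in each genotype (Serpina1a and Serpina1e in both, with Serpina3m in PP and Serpina1c in LL mice), against 9.74% of all genes in PP and 8.16% in LL mice. The median log2 fold change of the 9 genes was -0.41 in PP and -0.31 in LL mice, with 0.00 and 0.01 over all genes tested. edgeR called 4 of the 9 genes in PP and 2 in LL mice, against 5.24% and 4.28% of all genes.

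Serpina1e was the gene that differed most. Male PP 1 to 4 had 72181, 95297, 39849 and 41430 normalized counts and male LL 1 to 4 had 20138, 35944, 31328 and 74849. The highest of any female was 11440, in female PP 1, and 8 of the 10 females were at 1656 or below. All 8 males were therefore above all 10 females. Females differed from males on the log2 scale by -3.88 ± 0.96 in PP mice (SE; adjusted p = 0.00157 by DESeq2) and -5.76 ± 0.96 in LL mice (adjusted p = 2.43e-07), and it was also called in both genotypes with edgeR and without any 1 library.

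**Figure D2:**
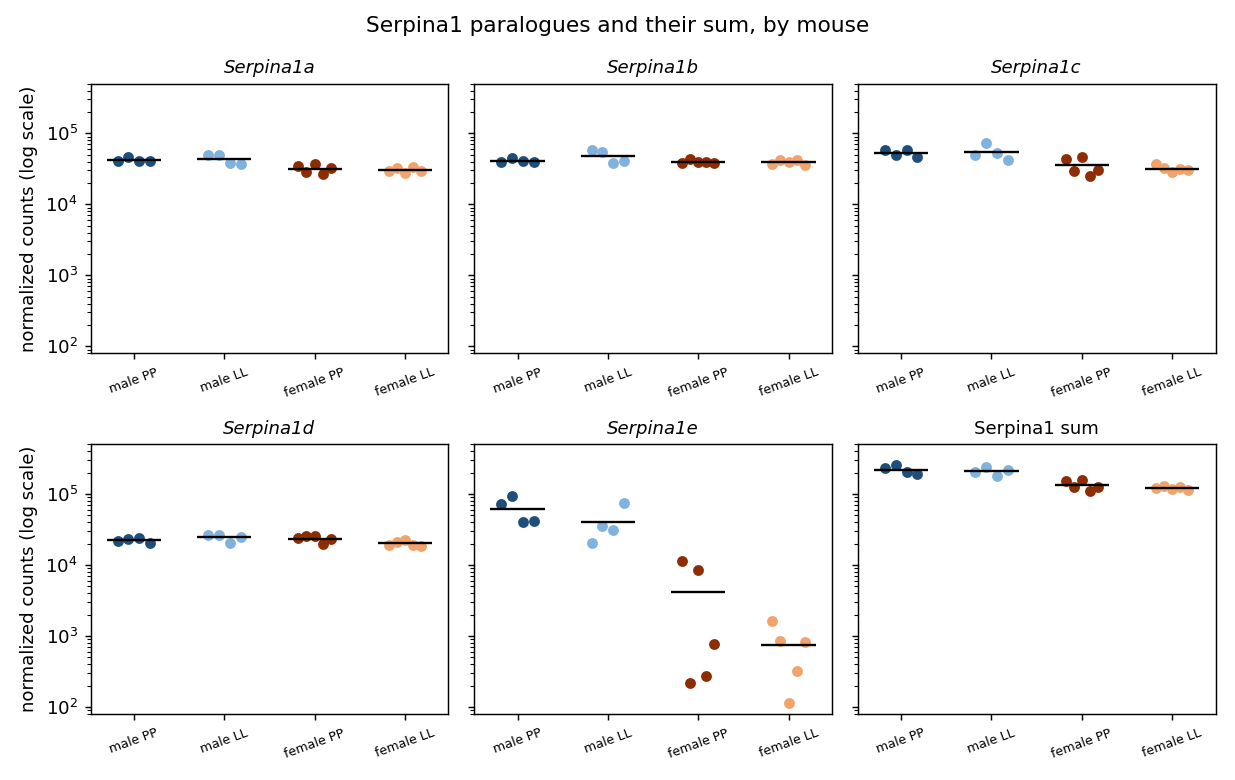
Normalized counts of the Serpina1 paralogues and their sum on a log axis, with a point for each mouse and a line at the group mean. Serpina1e spans from 116 to 95297 over the 18 mice, with female PP 1 and 3 between the other females and the males, while the other paralogues stay within a narrow band.

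Serpina1c followed in the same direction with a smaller difference. Normalized counts were 53020 ± 5627 in males and 35202 ± 9587 in females of PP genotype, and 54587 ± 13252 and 31665 ± 3199 in those of LL genotype (SD). On the log2 scale females differed by -0.59 ± 0.18 and -0.79 ± 0.18 (SE, DESeq2 adjusted p = 0.0229 and 0.000908). In PP mice the groups overlapped by female PP 3, at 47079, and male PP 4, at 46666. That call was lost in 8 of 20 alternatives, among them the fits without male PP 1, male PP 3, female PP 2, female PP 4 or female PP 5, with adjusted p from 0.0719 to 0.107. Serpina1a was lower in females with adjusted p of 0.0118 in PP and 0.000863 in LL mice, but its fold changes of 0.754 and 0.704 lay just outside the fold limit, so it was not called. Serpina1b and Serpina1d did not pass the test in either genotype, with log2 fold changes of -0.04 ± 0.12 and 0.07 ± 0.10 in PP mice and -0.29 ± 0.12 and -0.28 ± 0.10 in LL mice.

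The makeup of the Serpina1 sum also differed between the sexes. Serpina1e made up 27.4% ± 8.02 of the Serpina1 counts in male PP (SD, n = 4) and 19.1% ± 10.5 in male LL mice (n = 4), against 2.78% ± 3.43 in PP females and 0.612% ± 0.482 in LL females (n = 5 each). Single female PP mice had 7.53%, 0.173%, 5.32%, 0.249% and 0.612%. Serpina1b took 30.1% ± 4.68 of the counts in PP females and 31.9% ± 1.57 in LL females. The Serpina1 sum itself was lower in females, with log2 fold changes of -0.71 ± 0.12 in PP (SE, DESeq2 adjusted p = 3.41e-07) and -0.79 ± 0.12 in LL mice (adjusted p = 1.34e-08), and no female reached the lowest male of her genotype. The sum of the 4 paralogues other than Serpina1e was 158653 ± 7829 normalized counts in males and 130432 ± 14822 in females of PP genotype, and 170074 ± 27999 and 121225 ± 5515 in those of LL genotype (SD). These 4-gene sums overlapped in PP mice only, by female PP 3 with 149074 and male PP 4 with 147243.

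**Figure D3:**
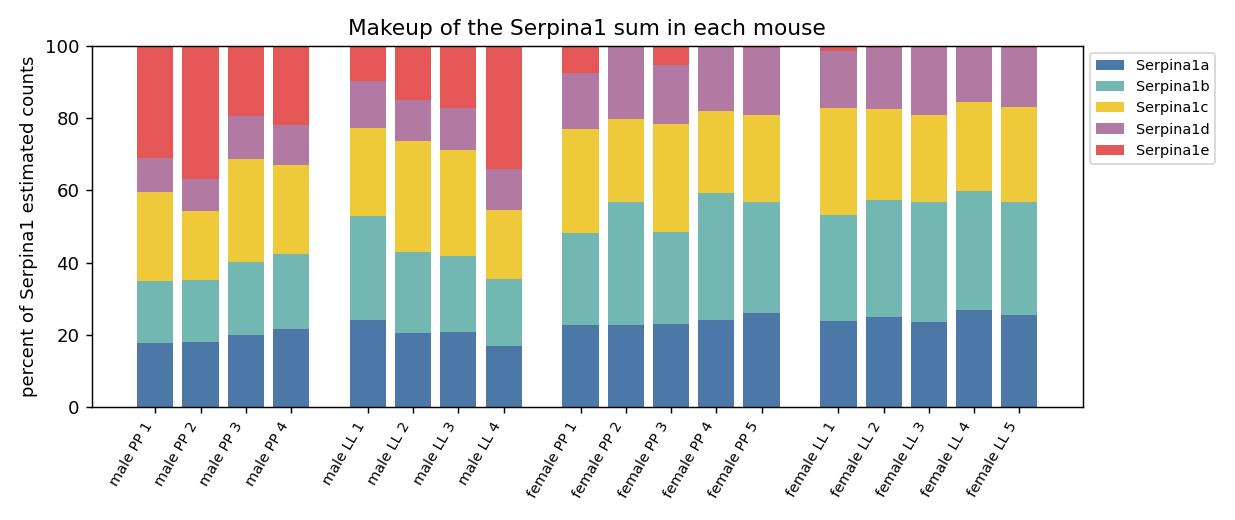
Share of each paralogue in the Serpina1 estimated counts of each mouse, as stacked bars that add up to 100 percent. The Serpina1e segment at the top takes 9.85% to 36.8% in males and is visible in females mainly in female PP 1 and 3.

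Serpina6, the glucocorticoid carrier, was the member with the largest rise in females. Male PP 1 to 4 had 933, 973, 1167 and 1193 normalized counts, and female PP 1 to 5 had 1182, 2753, 1835, 3326 and 2373. The groups overlapped by 1 female, female PP 1. The fitted log2 difference was 1.10 ± 0.29 (SE; adjusted p = 0.00481 by DESeq2), called in all 20 alternatives. In LL mice males had 2241, 1278, 1034 and 1807 and females 2174, 2268, 2678, 5686 and 3189, a log2 difference of 1.01 ± 0.29 (adjusted p = 0.0149). This call was lost in 6 of 19 alternatives, with the value falling to 0.70 (adjusted p = 0.109) without female LL 4, the mouse with 5686, and also without male LL 2 or male LL 3 (adjusted p = 0.0737 and 0.0756).

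Among the Serpina3 genes the directions were mixed. Serpina3m was higher in female PP mice, with 914 to 2117 normalized counts against 533 to 885 in male PP mice and so no overlap (log2 fold change 0.87 ± 0.24, DESeq2 adjusted p = 0.00827). Its call was lost without male PP 1 or female PP 5 (adjusted p = 0.0644 and 0.0598) and with the replicate block (0.0537). In LL mice it was 0.70 ± 0.24 (adjusted p = 0.0562) and not called. Serpina3n was lower in female PP mice, with 1183, 842, 1278, 1073 and 1595 normalized counts that overlapped those of male PP mice, at 1339 to 2678 (-0.65 ± 0.19, adjusted p = 0.0102). Without male PP 2 the value was -0.43 (adjusted p = 0.143). In LL mice it was -0.31 (adjusted p = 0.342).

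Serpina3k varied most within the female groups after Serpina1e, with coefficients of variation of 60.7% in PP and 46.8% in LL females. Female PP 1 to 5 had 106980, 24578, 77033, 26508 and 52997 normalized counts and female LL mice 14939 to 68445, against 80459 to 147538 in male PP and 58458 to 105910 in male LL mice. The log2 fold changes of -0.92 ± 0.43 and -0.93 ± 0.43 were not called (DESeq2 adjusted p = 0.216 and 0.184). In PP mice the value was -1.26 (adjusted p = 0.0162) without female PP 1, the highest of its group, and with the replicate block it was called in both genotypes (adjusted p = 0.0481 and 0.0229).

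**Figure D4:**
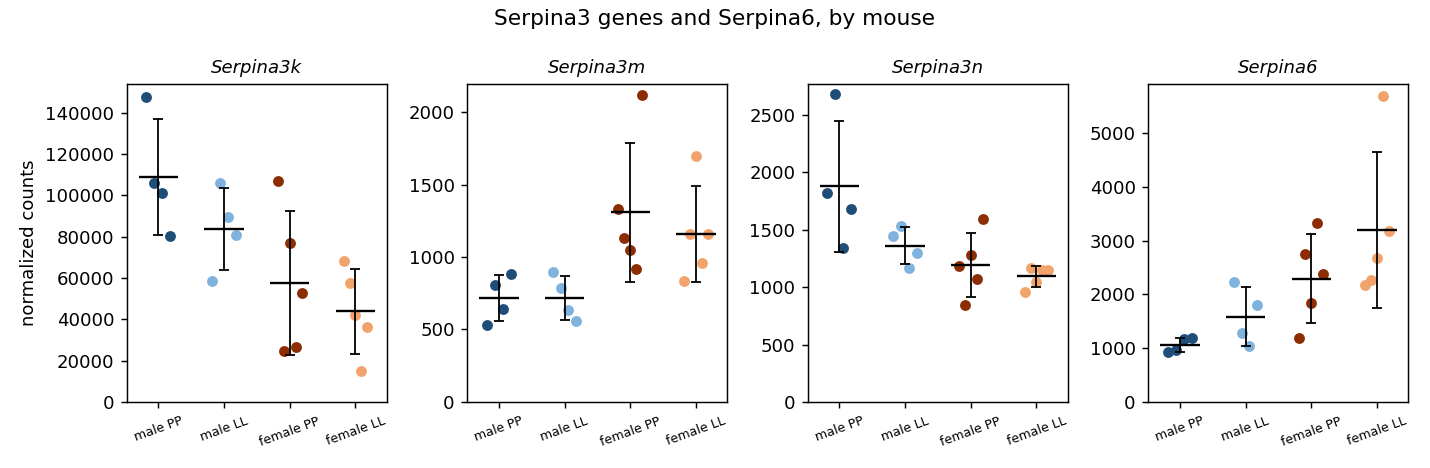
Normalized counts of Serpina3k, Serpina3m, Serpina3n and Serpina6 in each mouse, with the group mean and SD, on axes that start at 0. Serpina6 and Serpina3m lie higher in females, and Serpina3k spreads from 24578 to 106980 within female PP mice.

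The size of these sex differences depended on the scale. Normalized counts use median-of-ratios size factors, which set the typical gene equal between libraries. With total counts as size factors, which put each library on the share of its counts, Mup counts included, the median gene moved on the log2 scale by 0.37 for females against males of PP genotype and by 0.23 for LL genotype, and by 0.13 for LL against PP males. On that scale calls among all genes were 2616 higher and 158 lower in PP females against PP males, where median-of-ratios gave 402 and 303. They were 1124 and 151 in place of 364 and 305 for sex in LL mice, 93 and 3 in place of 23 and 8 for male genotype, 19 and 30 in place of 40 and 32 for female genotype, and 2 and 17 in place of 7 and 6 for the interaction. For the Serpina1 sum of PP mice the ratio of female to male means was 0.61 by normalized counts, 0.793 by share of counts and 0.936 by TPM, with TPM values of 19416 to 28500 in females within the 16975 to 33413 of males. With total counts as size factors its log2 fold change was -0.33 (adjusted p = 0.0154), short of the fold limit. Serpina1c and Serpina3n were lower in female PP mice by normalized counts (ratios 0.664 and 0.636) but higher by TPM (1.18 and 1.12), and Serpina1b turned from 0.971 to 1.75. TPM rescaled by median-of-ratios gave 0.559 for the Serpina1 sum, 0.69 for Serpina1c and 0.659 for Serpina3n. Serpina1e stayed lower and Serpina3m and Serpina6 stayed higher in females on all 4 scales and in both genotypes. In LL mice the Serpina1 sum kept ratios of 0.534 to 0.671.

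**Figure D5:**
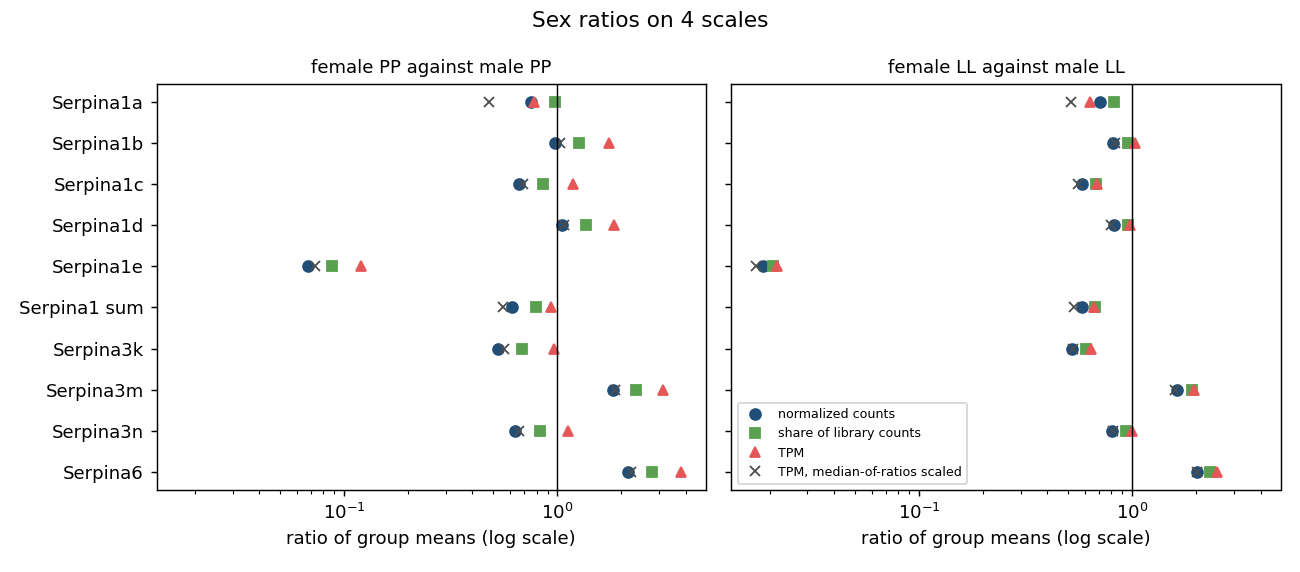
Ratio of the female to the male group mean for each gene and the Serpina1 sum on 4 scales, on a log axis, for PP mice on the left and LL mice on the right. In PP mice the TPM triangles lie to the right of the normalized counts for each gene, and Serpina1b, Serpina1c and Serpina3n cross the line at 1.

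Neighbouring serpins of the cluster and of other clades were compared as context. Of all 10938 tested genes, 6.45% were called between the sexes in PP and 6.12% in LL mice. Of 17 other clade A serpins 9 were tested, and 0 were called by genotype with DESeq2 or edgeR (1 in males and 2 in females at an unadjusted DESeq2 p below 0.05). Between the sexes Serpina10, an inhibitor of coagulation factor Xa, was lower in female PP mice (log2 fold change -0.57 ± 0.17, DESeq2 adjusted p = 0.0129), and Agt, which encodes angiotensinogen and is a serpin without inhibitory action, was higher in females in PP (0.80 ± 0.23, adjusted p = 0.00967) and LL mice (0.98 ± 0.23, adjusted p = 0.000741). Of 11 tested serpins of other clades, 3 were higher and 1 lower in female PP and 2 higher and 1 lower in female LL mice. Serpine2, which encodes protease nexin 1, was the lower gene in both (-1.98 ± 0.40 and -3.29 ± 0.48, adjusted p = 3.77e-05 and 1.71e-09), and Serpinb1a rose in both (1.90 ± 0.54 and 2.48 ± 0.52, adjusted p = 0.0105 and 0.000145). Both genes were at low levels. Serpinb1a had 2.1 to 9.4 normalized counts in male PP and 8.39 to 51.6 in female PP mice, which overlapped. In LL mice it had 3.24 to 14.3 in males and 35.5 to 56.9 in females. Serpine2 had 15.7 to 51.3 in male PP and 7.25 to 12.0 in female PP mice. In LL mice it had 16.8 to 48.0 in males and 0.988 to 7.28 in females. Proteases on which serpins act were listed as 18 genes, of which 9 were tested and 0 called in the 4 contrasts with DESeq2 or edgeR. Between the sexes 4 in PP and 6 in LL mice had an unadjusted DESeq2 p below 0.05. Over all 10938 tested genes this held for 1913 in PP and 2190 in LL mice. The most abundant, Plg, which encodes plasminogen, had log2 fold changes between -0.27 and 0.07.

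Lists of genes for serpin export, liver transcription factors, IL-6 to STAT3, the acute phase, glucocorticoids and growth hormone were given in the same way. Of all 10938 tested genes, 6.45% were called between the sexes in PP and 6.12% in LL mice. By genotype 0.283% were called in males and 0.658% in females. At an unadjusted DESeq2 p below 0.05 there were 1913 and 2190 genes for sex, and 7.81% and 13.0% for genotype. Of 17 genes of ER export and degradation of alpha-1 antitrypsin, such as the chaperone gene Calr, 0 were called in the 4 contrasts with DESeq2 or edgeR, with at most 3 at an unadjusted DESeq2 p below 0.05. Of 10 liver transcription factors, such as Hnf4a (log2 fold changes from -0.25 to -0.12), 0 were called by either tool, with at most 4 at an unadjusted p below 0.05. Of 11 tested genes in the list for IL-6 receptor to STAT3, 1 was called between the sexes. It was the interleukin-1 receptor gene Il1r1, which is in the list but is not itself part of that path. Il1r1 was lower in females in PP (-1.72 ± 0.25, DESeq2 adjusted p = 4.67e-10) and LL mice (-0.97 ± 0.26, adjusted p = 0.0065). By genotype in males Il1r1 was 131 to 251 normalized counts in PP and 60.9 to 128 in LL mice, without overlap (-1.10 ± 0.26). Independent filtering, which leaves out genes of low mean count, gave it no adjusted p there, so it could not be called. Of 21 acute-phase genes, 3 were lower with LL genotype in males (Saa1, Saa2 and Lbp), and 0 with edgeR. In females 0 were called by genotype. At an unadjusted DESeq2 p below 0.05 there were 10 in males and 3 in females. Orm3 was also left without an adjusted p, at 12.8 to 29.4 normalized counts in PP and 0.892 to 6.48 in LL males. Saa1 and Saa2 overlapped between the male genotypes, with male PP 2 far above the rest. Saa2 had 461, 7007, 184 and 295 normalized counts in male PP 1 to 4 and 91.9 to 299 in male LL mice. Saa1 and Saa2 were also called in the interaction (DESeq2 adjusted p = 0.0245 and 0.0274), against 0.119% of all genes. Between the sexes 6 acute-phase genes were lower in PP females, and in LL females 4 were lower and 1, Orm3, was higher. Saa1, a serum amyloid gene, differed in PP females by -5.64 ± 0.65 on the log2 scale (DESeq2 adjusted p = 2.08e-15), with 591 to 12575 normalized counts in PP males and 68.7 to 101 in PP females. Of 13 genes of glucocorticoid handling and response, 1 was higher (Sgk1) and 1 lower (Srd5a1) in female PP mice, and 2 were higher (Hsd11b1 and Akr1d1) and 1 lower (Srd5a1) in female LL mice. Hsd11b1, which regenerates active glucocorticoid, had a log2 fold change of 0.54 ± 0.17 (adjusted p = 0.035). Of 9 growth hormone to STAT5 genes, 1 was higher and 1 lower in PP females and 4 were higher in LL females. The female-specific repressor Cux2 rose in both genotypes (5.49 ± 0.81 and 5.98 ± 1.11, adjusted p = 1.23e-09 and 7.6e-06) and the male-biased repressor Bcl6 was lower in female PP mice (-2.09 ± 0.62, adjusted p = 0.0147). In LL females Igfals, Socs2 and Stat5b were also higher (1.05 ± 0.27, 1.31 ± 0.39 and 0.65 ± 0.21, adjusted p = 0.00431, 0.0166 and 0.0317).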

How the data were processed

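Liver RNA-sequencing libraries of 18 mice were analysed. The authors extracted total RNA with Trizol and columns with DNase, required a minimum RNA integrity before sequencing, checked reads with FastQC and assigned them with Salmon 1.4.0 (version from the submitters' processing notes) to GENCODE M26 transcripts of GRCm39. The deposited tables give an estimated count and a TPM for each of 139225 transcripts, neither scaled between libraries beyond the fixed total of TPM. The sequencing layout and strand setting are not given in the sources used here. The files hold no protein sequences, and none is shown.

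Transcripts were joined to genes by the GENCODE M39 annotation (137570 matched, with at least 99.76% of the counts of a library). Estimated counts were summed per gene and rounded. Genes that reached 10 counts in 4 or more libraries were tested in 1 DESeq2 1.42.0 fit (R 4.3.3) of the 4 groups, with median-of-ratios size factors, the Wald test and Benjamini-Hochberg adjustment over all genes. For the Serpina1 sum the 5 rows were replaced by their sum. Calls needed an adjusted p below 0.05 with a ratio from 1.3 up or 0.7 down, and the interaction an adjusted p below 0.05. Alternatives were edgeR 4.0.16 (quasi-likelihood), TMM size factors, no filter, no independent filtering, only the 2 groups, age, fragment length or replicate number as a term, a transcript length offset, and leaving out each library. Total counts as size factors and the fit without female PP 1 and 3 were added after the data were seen. The fit was tested on simulated counts.

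Errors are SE for log2 fold changes and otherwise SD over mice. Each library counts as 1 mouse by its label. Sampling noise was exceeded between any 2 libraries of a group (chi-square per degree of freedom 12.3 to 107). That cannot itself show separate mice, because differences in library preparation can add to it too. The labels do not say which mice shared a litter. Labels give ages of 9 to 14 weeks, and the series text 14 weeks. The members and gene lists were chosen with earlier results of these data known. Named genes were the members, Gckr and, from each list, at most 4 called genes per contrast by smallest adjusted p, or the 1 or 2 most abundant of an uncalled list.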

Additional observations from a re-analysis of the deposited data

Results flagged for a closer look

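In 40 combinations of the 9 genes and the Serpina1 sum with the 4 groups, the gap of the highest or lowest mouse to its neighbour was compared with the range of the group, a test that flags about 1 in 20 groups by chance. It singled out 2 values. Serpina1a in male PP 2 had 46569 normalized counts, against 40543 to 41054 in the other 3 male PP mice. Serpina6 in female LL 4 had 5686 normalized counts, against 2174 to 3189 in the other 4 female LL mice. Female PP 1 and 3, which stood apart together for Serpina1e and Serpina3k, cannot be singled out by a test of 1 extreme value.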

How the results depend on the processing

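Most values kept their direction and their side of the threshold: 870 of the alternative values of members and 100 of those of the Serpina1 sum did, while 20 and 1 lost a call, 23 and 0 gained one and 41 and 5 changed sign. Members called in the contrasts of male genotype, female genotype, sex in PP, sex in LL and interaction were 0, 0, 5, 3 and 0, and 0, 0, 5, 4 and 0 with the replicate block. Same-numbered mice did not deviate together (r from -0.17 to 0.16). In each group label age rose or stayed level with the replicate number, so the block also carries part of age. Age as a term gave 6 for sex in PP and 6 in LL mice and total counts as size factors gave 1 for the interaction. Leaving out 1 library gave 0 to 1 for female genotype (1 without female PP 4) and 3 to 6 for sex in PP mice (3 without male PP 1 or female PP 5). Over all genes, calls in the 5 contrasts were 31, 72, 705, 669 and 13 with DESeq2. They were 3, 3, 573, 468 and 0 with edgeR, 53 for male and 28 for female genotype with the length offset, 44 for female genotype with age, 14 for female genotype and 432 for sex in LL mice with fragment length, 8 for the interaction without independent filtering, 18 for female genotype without female PP 1 and 3, and 96, 2774 and 1275 for male genotype and sex in PP and LL mice with total counts. Without 1 library they were 20 to 58 for male genotype, 28 to 276 for female genotype (276 without female PP 4) and 3 to 27 for the interaction. Estimated fragment lengths were 247 to 376.5 bases in female LL and 368.9 to 631 in female PP libraries, so fragment length and genotype largely coincided in females. They were 202.9 to 582 bases in male LL and 396.1 to 629.7 in male PP libraries. The cause of these changes in the number of calls was not tested.

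Values that changed sign were these. For male genotype, Serpina1a was -0.34 with the transcript length offset and -0.04 to 0.10 without 1 library, Serpina1c was -0.13 to 0.15 and Serpina3m -0.12 to 0.12 without 1 library, and Serpina3m was 0.00 with edgeR, 0.00 with TMM, -0.01 with the replicate block and -0.08 with age. The Serpina1 sum was 0.07 with total counts and -0.14 to 0.02 without 1 library. Female PP 1 and 3 were left out for their high Serpina1e and Serpina3k, so the values without them are a description and no test. For female genotype without female PP 1 and 3, Serpina1a was 0.04, Serpina1c 0.16, Serpina1e 0.83, Serpina3k 0.34 and the Serpina1 sum 0.01. Without 1 library Serpina3m was -0.35 to 0.07 and Serpina3n -0.23 to 0.00. Between the sexes in PP mice, Serpina1b was 0.04 with the length offset and 0.33 with total counts. The Serpina1 sum kept its sign there, at -0.33 with total counts, but was no longer called. For the interaction, Serpina1a was 0.11 with the length offset and Serpina3k 0.02 with fragment length. Without female PP 1 and 3 the interaction was 0.01 for Serpina1a, 0.12 for Serpina1c, 1.45 for Serpina1e, 0.72 for Serpina3k and 0.08 for the Serpina1 sum. Without 1 library it was -0.23 to 0.33 for Serpina3k, -0.35 to 0.07 for Serpina3m and -0.41 to 0.12 for Serpina6.

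Estimated counts of the Serpina1 genes depend on how reads were split between copies, which these tables do not allow to be redone. Groups of 4 and 5 mice leave wide errors for Serpina1e and Serpina3k.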

Other observations

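Other genes of the cluster also set female PP 1 and 3 apart from the other 3 female PP mice, and were looked up after the values of Serpina1e had been seen. Serpina12, which encodes the insulin-sensitizing adipokine vaspin, had 113 and 114 normalized counts in these 2 mice and 10, 9.06 and 29.8 in female PP 2, 4 and 5. The pseudogene Serpina4-ps1 had 480 and 378 against 21.8, 12.7 and 92.3. In female LL mice both genes were highest in female LL 1, at 118 and 131, which was also the female LL mouse with most Serpina1e and Serpina3k. Male LL 4 had the highest Serpina1e of its group (74849) beside the lowest Serpina12 (59.4) and Serpina4-ps1 (152).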
